A study of Homo sapiens with 12 samples.

Results

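HOX genes encode homeodomain transcription factors and stand in 4 clusters, HOXA on chromosome 7, HOXB on 17, HOXC on 12 and HOXD on 2. In the RNA-seq files of K562 cells treated with the USP7 inhibitor FT671 or with DMSO, every protein-coding gene was taken whose symbol begins with HOX, a cluster letter and a digit, after the deposited identifiers were matched to GENCODE release 44 without their version. Values are given for 38 of them, among 60609 genes in the files and 19886 protein-coding genes: 10 in HOXA, 10 in HOXB, 9 in HOXC and 9 in HOXD. K562 is a human leukemia line with erythroid features, derived from chronic myeloid leukemia in its blast phase and carrying the BCR-ABL1 fusion. The study used 3 libraries of cells given the solvent DMSO and 3 of cells given 10 μM FT671 for 48 h, with no genetic change in either group. The comparison asks what inhibiting USP7, a deubiquitinase found in the non-canonical Polycomb complex PRC1.1, does to transcript levels. The paper's text speaks of 3 independent experiments with DMSO or FT671, which could mean that each experiment held both treatments. The labels state neither, and p-values measure the spread between experiments on a single cell line.

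Within a cluster the genes are numbered by paralog group from the 3′ to the 5′ end, and in the embryo the 3′ (anterior) genes are in general switched on earlier and further forward than the 5′ (posterior) genes. Polycomb complexes are known to hold HOX genes silent in cells that do not use them, whereas MLL (KMT2A) and DOT1L are known to keep them active. In blood, HOX genes of the A and B clusters are expressed in stem and progenitor cells, and high HOXA9 with its partner MEIS1 is a hallmark of leukemias with MLL fusions.

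Depth set what could be seen. Totals ran from 4555220 to 14250500 counts, with 30540716 counts in the DMSO and 21598800 in the FT671 libraries together. The limit that a count of 0 allows, 3 counts, came to 0.211 counts per 1000000 (CPM) at the highest total and to 0.659 CPM at the lowest, and covers counting error only. A gene was called detected in a library when it had more than 3 counts, detected in a group when this held in at least 2 of 3 libraries, and silent in a group when no library had more than 3. Of 12 genes known to mark K562 cells, 11 were detected in DMSO and 12 in FT671. Of 16 markers of other cell types, 6 had more than 3 counts in every library (CD3D, LYZ, EPCAM, KRT19, COL1A1 and PECAM1) and 4 had none in any (CD2, MS4A1, ELANE and CDH5), and their summed level was 309 to 334 CPM in DMSO and 366 to 381 CPM in FT671. Their part in the HOX results was not tested.

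In DMSO, 13 of the 38 HOX genes were detected, 1 (HOXC12) was over 3 counts in a single library, and 24 were silent. Among all protein-coding genes, 60.8% were detected. The detected genes were all of HOXB2 to HOXB9, and HOXC4, HOXC6, HOXC8, HOXC9 and HOXC13. No HOXA or HOXD gene given here was detected in either group, and 14 of the 38 genes had no count in any of the 6 libraries.

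**Figure D1:**
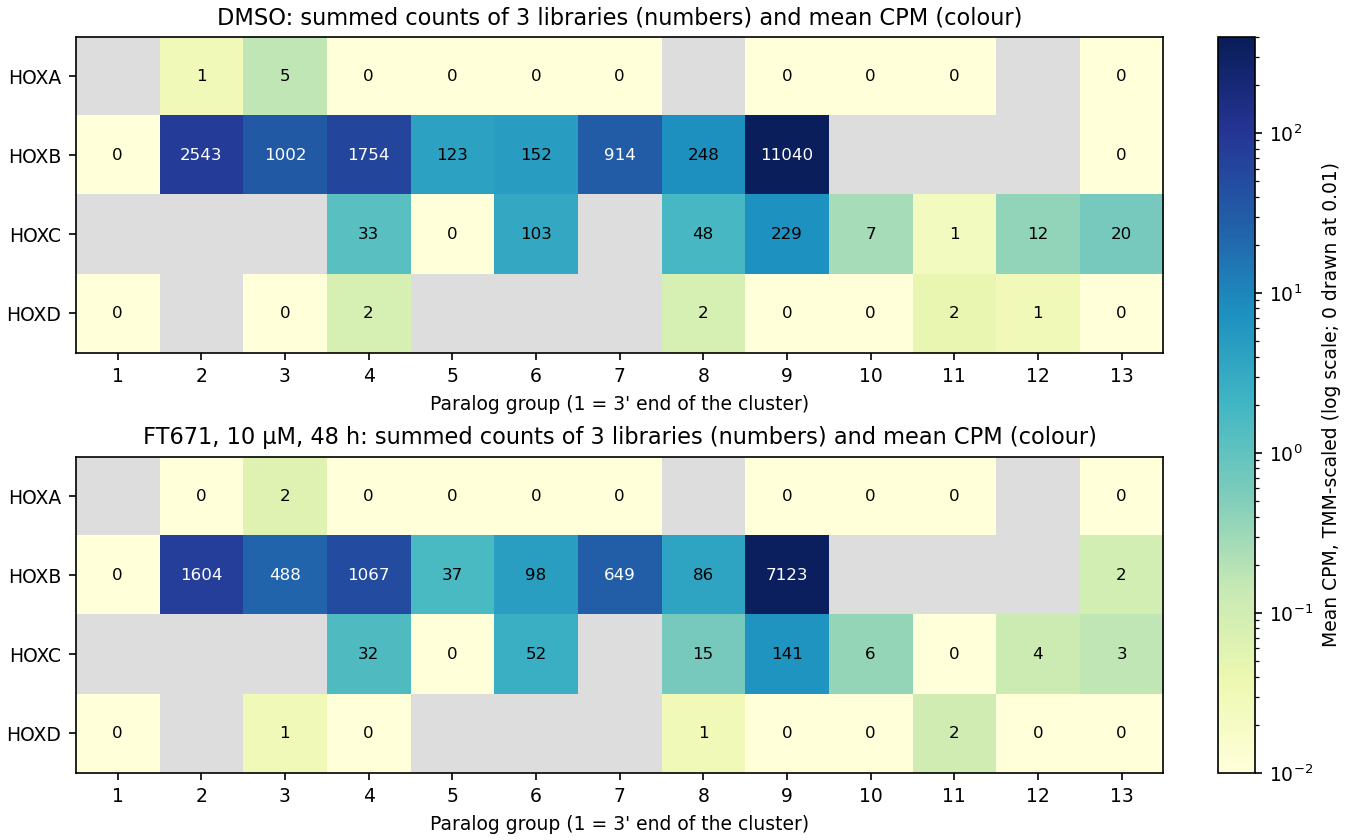
Each square is a HOX gene, placed by cluster (rows) and paralog group (columns); grey squares hold no gene given here. Numbers are counts summed over 3 libraries and colour is the mean CPM on a log scale. Nearly all counts fell in HOXB2 to HOXB9, with 11040 for HOXB9 in DMSO and 7123 in FT671.

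Promoter sequences are shown for 1 transcribed and 3 silent genes, chosen after their values were seen: HOXC4, which was detected, HOXB1, the silent 3′ neighbour of the transcribed HOXB genes, and HOXA9 and HOXD13, which had no count in any library. They come from RefSeq on GRCh38.p14, cover 250 bases before and 50 after a transcription start, and have each CG in capitals, since KDM2B, the PRC1.1 subunit with a CxxC domain, is known to bind unmethylated CG-rich DNA. The letters are those of the reference genome, and methylation or binding was not measured in the files used here.
HOXC4, chr12:54016638-54016937, plus strand, 15 CG: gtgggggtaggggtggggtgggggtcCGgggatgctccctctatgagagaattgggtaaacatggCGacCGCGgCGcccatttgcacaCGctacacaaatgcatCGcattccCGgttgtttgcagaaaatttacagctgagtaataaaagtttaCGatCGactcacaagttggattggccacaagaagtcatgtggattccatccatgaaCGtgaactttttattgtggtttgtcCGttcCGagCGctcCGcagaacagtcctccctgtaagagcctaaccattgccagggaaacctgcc
HOXB1, chr17:48530962-48531261, minus strand, 11 CG: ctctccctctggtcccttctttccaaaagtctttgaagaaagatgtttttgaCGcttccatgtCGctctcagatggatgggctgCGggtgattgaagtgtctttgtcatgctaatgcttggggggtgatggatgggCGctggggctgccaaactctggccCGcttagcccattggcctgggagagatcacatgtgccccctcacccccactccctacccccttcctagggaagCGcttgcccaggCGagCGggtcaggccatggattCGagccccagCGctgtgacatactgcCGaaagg
HOXA9, chr7:27165488-27165787, minus strand, 22 CG: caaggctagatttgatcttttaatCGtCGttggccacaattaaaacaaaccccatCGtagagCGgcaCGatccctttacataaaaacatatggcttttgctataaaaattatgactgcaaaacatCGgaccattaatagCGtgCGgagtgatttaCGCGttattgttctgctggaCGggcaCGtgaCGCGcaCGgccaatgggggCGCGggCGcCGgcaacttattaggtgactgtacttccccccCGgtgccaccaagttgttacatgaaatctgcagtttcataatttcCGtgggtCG
HOXD13, chr2:176092471-176092770, plus strand, 24 CG: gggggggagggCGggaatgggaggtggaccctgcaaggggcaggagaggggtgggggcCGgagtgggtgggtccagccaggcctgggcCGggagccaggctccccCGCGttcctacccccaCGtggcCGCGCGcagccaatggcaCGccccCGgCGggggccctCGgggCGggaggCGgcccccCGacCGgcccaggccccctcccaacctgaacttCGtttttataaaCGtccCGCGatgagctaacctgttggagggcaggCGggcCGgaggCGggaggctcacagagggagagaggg

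The RefSeq table matched 20 of the 38 HOX genes, with 27 windows, and 19 of those 20 genes were silent in DMSO; the HOXC4 window is also listed for HOXC5. A window counted as CG-rich when its GC content was over 50% and its ratio of observed to expected CG over 0.6. By this rule 20 of 27 HOX windows were CG-rich (74.1%), against 46.8% of 35116 windows of all genes. The median number of CG per 300 bases, with CG read the same on both strands, was 22 in HOX windows and 14 in all windows. Of the 4 windows shown, those of HOXC4 and HOXD13 were CG-rich, whereas HOXA9 missed the rule on GC content (48.0%) and HOXB1 the rule on the ratio (0.436). Of the 19 silent genes, 15 had a CG-rich window. With 1 detected gene in the table, detected and silent HOX promoters could not be compared.

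HOXB carried nearly all HOX transcripts. The HOXB genes summed to 568, 589 and 580.2 CPM in DMSO replicates 1, 2 and 3 and to 513, 495 and 545 CPM in FT671 replicates 1, 2 and 3. Every FT671 library was below every DMSO library, with means of 579 ± 10.3 and 518 ± 25.6 CPM (SD, n = 3 each). The HOXC genes summed to 14.3, 14.9 and 15.3 CPM in DMSO and to 10.7, 11.9 and 12.4 CPM in FT671, again without overlap. Of all single genes tested, 30.3% were also lower in every FT671 library, so such a lack of overlap is common. HOXB9 by itself went from a mean of 360 CPM in DMSO to 330 CPM in FT671 and was not called lower. The sums were not tested, and no GC correction was applied to them. In the gene-by-gene fit with a GC correction, HOXB9, HOXB2 and HOXB4 had log2 fold changes of -0.003, -0.03 and -0.05. HOXB6 and HOXB7 were then at 0.06 and 0.12, while HOXB3, HOXB5 and HOXB8 stayed lower (-0.38, -1.08 and -0.83). HOXA summed to 6 counts and HOXD to 7 counts over the 3 DMSO libraries, and to 2 and 4 counts over the 3 FT671 libraries. In bulk RNA, fewer cells that express a gene and less RNA per cell cannot be told apart.

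Levels of different genes were compared in CPM per kilobase of annotated exon. HOXB9, a posterior gene, stood highest at 139 ± 2.28 CPM per kb in DMSO (SD, n = 3), and 1.19% of protein-coding genes had a higher mean. It was followed by HOXB2, which patterns the hindbrain, at 33.6 ± 2.96, by HOXB4, known for expanding hematopoietic stem cells, at 28.7 ± 1.30, and by HOXB7 at 19.6 ± 1.09 CPM per kb. These 4 genes did not overlap in their ranges over the DMSO libraries. HOXC9 at 4.45 ± 0.163 and HOXB3 at 4.35 ± 0.126 CPM per kb overlapped, and their order turned when only exon sequence free of other genes was counted (4.93 for each, with HOXB3 ahead). HOXB8 stood at 3.21 ± 0.478, HOXB5 at 2.22 ± 0.477 and HOXB6 at 1.87 ± 0.283 CPM per kb. HOXB5 and HOXB6 overlapped, and HOXB6 passed HOXB5, at 2.78 against 2.31, by the exclusive exon length. HOXC6, HOXC8, HOXC4 and HOXC13 lay lower still, between 0.932 and 0.277 CPM per kb, and each overlapped the next. Level thus did not follow the order of the genes along the HOXB cluster: low genes (HOXB5, HOXB6) lay between high ones (HOXB4, HOXB7).

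Several of these genes share exon sequence, and how reads over 2 genes or on the opposite strand were counted is not given in the sources used here. HOXB3 overlaps HOXB4, HOXB6, HOXB-AS1 and HOXB-AS3, with 88.3% of its exon sequence its own. HOXB6 keeps 67.1% of its own and overlaps HOXB3 and HOXB-AS3, and HOXB5 keeps 96.1%. HOXB7, HOXB8 and HOXB9 overlap no other exon. HOXC4 and HOXC6 overlap each other and keep 82.5% and 83.9%.

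**Figure D2:**
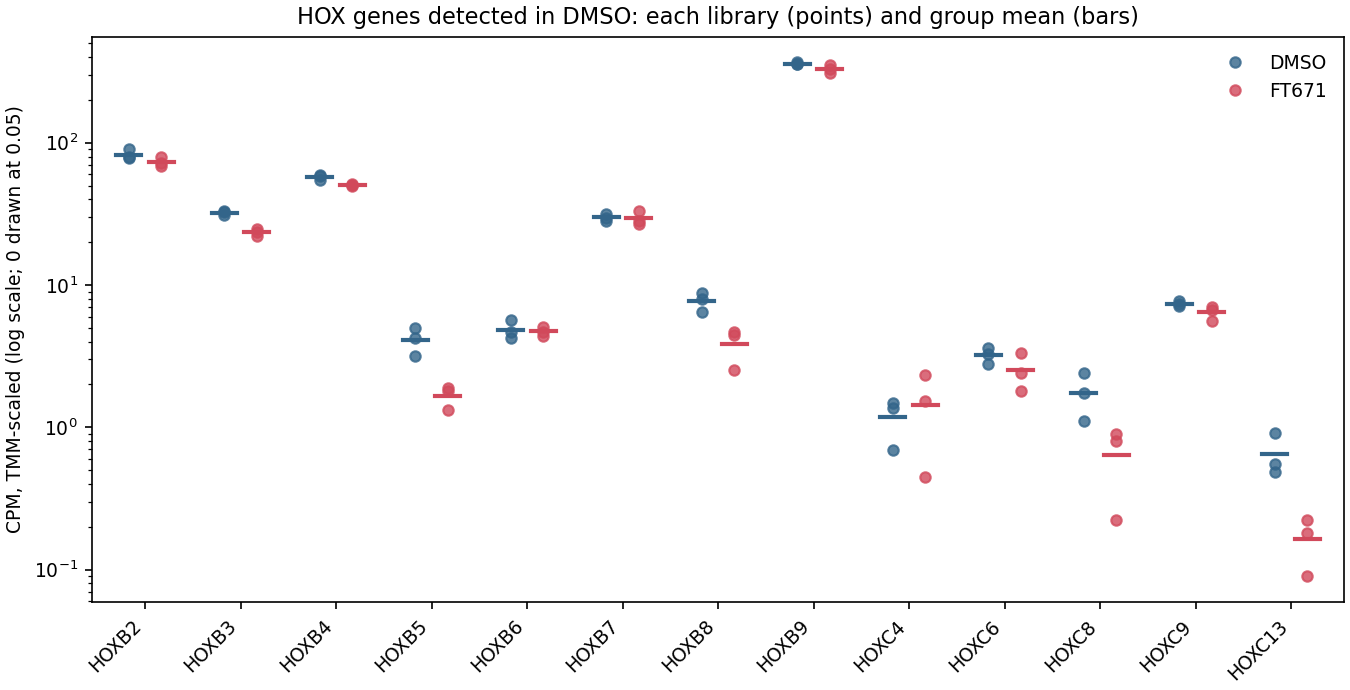
The vertical log axis gives CPM scaled by TMM in each library for the 13 HOX genes detected in DMSO; points are libraries, bars are group means, blue is DMSO and red is FT671. FT671 points lie below all DMSO points for HOXB3, HOXB4, HOXB5, HOXB8, HOXB9, HOXC8 and HOXC9, and for HOXC13 at a few counts. HOXC8 and HOXC13 were left out by the filter on low counts. Of all genes that passed it, 30.3% were lower in every FT671 library.

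FT671 was compared with DMSO gene by gene in edgeR (quasi-likelihood F test), and p-values were adjusted by Benjamini and Hochberg's method over all 13895 genes tested. Of the 38 HOX genes, 11 passed the filter on low counts. HOXB3, HOXB5 and HOXB8 fell and 0 rose at an adjusted p of 0.05. Among all genes tested 26.5% fell and 23.6% rose, so 3 of 11 lower was near the share for all genes, while 0 of 11 was higher. No tested HOX gene was higher at an unadjusted p under 0.05 either. DESeq2 called the same 3 genes lower and 0 higher, also unadjusted, where 19.4% of its genes fell and 17.3% rose. At the study's stricter threshold of 1e-05 edgeR called 0 HOX genes, where 4.13% of all genes fell and 1.79% rose. The median log2 fold change was -0.18 over the 11 HOX genes and -0.01 over all genes tested. With a correction for GC content these medians were -0.03 and 0.07, and HOXB2, HOXB4, HOXB9 and HOXC9 came to -0.03, -0.05, -0.003 and -0.03, while HOXB3, HOXB5 and HOXB8 stayed called. In 6 of the 11 genes every FT671 library was below every DMSO library, and in 0 above, against 30.3% and 26.8% of all genes.

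Of the anterior genes, HOXB3 fell. Its level was 32.8, 32.9 and 31.2 CPM in DMSO and 24.9, 23.5 and 22.0 CPM in FT671. The 2 groups were well apart, and the log2 fold change was -0.48 ± 0.104 (SE, adjusted p = 0.00166 by edgeR), a drop to 0.717 of the DMSO level. HOXB2 was at 77.6, 91.0 and 79.3 CPM in DMSO and 68.8, 72.3 and 79.8 CPM in FT671. These ranges overlapped, with a log2 fold change of -0.16 ± 0.0915 and an adjusted p of 0.165 in edgeR. For HOXB4 the levels were 54.6, 59.5 and 58.4 CPM in DMSO and 50.2, 51.1 and 49.9 CPM in FT671. Every FT671 library was lower, but by little, and the test missed the threshold (log2 fold change -0.19 ± 0.0876, edgeR adjusted p = 0.0866).

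Among the central genes, HOXB5, known as a marker of long-term hematopoietic stem cells in the mouse, showed the largest drop of the tested HOX genes. It had 46, 54 and 23 counts in DMSO and 6, 10 and 21 in FT671, or 3.19, 4.95 and 4.25 against 1.33, 1.80 and 1.88 CPM. The highest FT671 level was well under the lowest DMSO level, and the log2 fold change was -1.22 ± 0.286 (edgeR adjusted p = 0.00280), a drop to 0.429 of the DMSO level. HOXB8, which blocks myeloid differentiation when overexpressed, had 126, 87 and 35 counts in DMSO and 20, 14 and 52 in FT671. Its levels were 8.73, 7.97 and 6.47 CPM against 4.44, 2.53 and 4.65 CPM, again without overlap. The log2 fold change was -0.99 ± 0.224 (edgeR adjusted p = 0.00229), a drop to 0.505 of the DMSO level.

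HOXB6, HOXB7 and HOXB9, which lie next to HOXB5 or HOXB8, did not pass the test. HOXB6 was at 4.64, 5.68 and 4.25 CPM in DMSO and 5.11, 4.69 and 4.38 CPM in FT671, and the groups lay across each other. Its log2 fold change was -0.08 ± 0.206 (edgeR adjusted p = 0.763), and its sign turned with a GC correction and without DMSO replicate 2. HOXB7 was at 28.3, 31.6 and 29.6 CPM in DMSO and 26.7, 28.3 and 33.2 CPM in FT671, also mixed. It gave a log2 fold change of 0.0005 ± 0.112 (edgeR adjusted p = 0.997), with a sign that depended on the scaling. HOXB9, the most abundant, was at 359, 355 and 367 CPM in DMSO and 331, 310.5 and 349 CPM in FT671. All FT671 libraries were lower, with a log2 fold change of -0.12 ± 0.0690 and an edgeR adjusted p of 0.156.

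**Figure D3:**
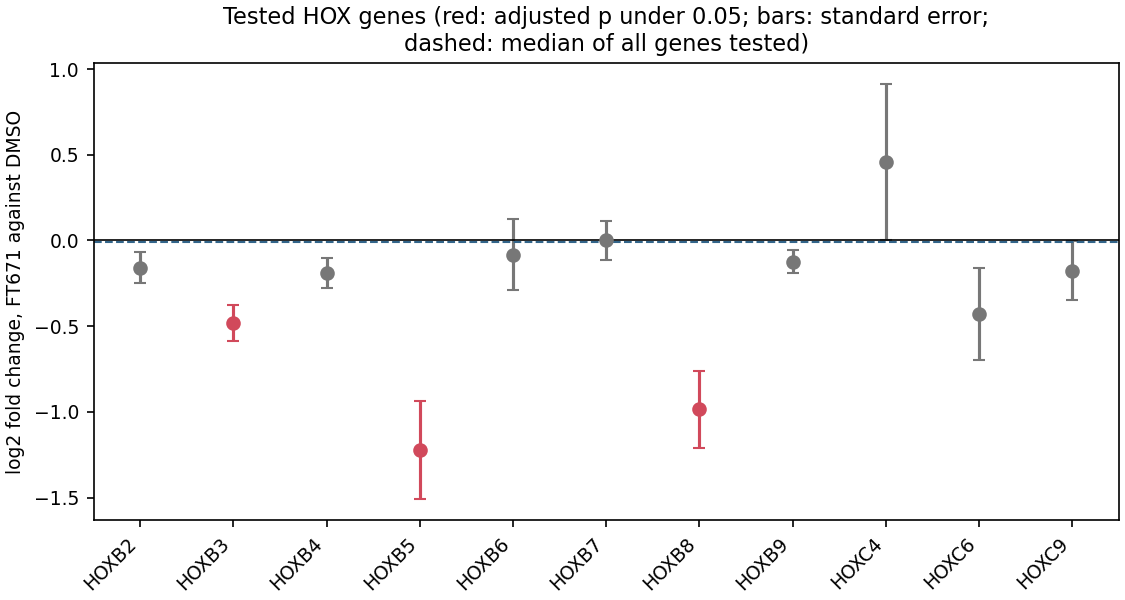
Points give the log2 fold change of FT671 against DMSO for the 11 HOX genes tested, bars the standard error, red an adjusted p under 0.05, and the dashed line the median of all genes tested (-0.01). HOXB3 (-0.48), HOXB5 (-1.22) and HOXB8 (-0.99) are red, and HOXC4 (0.46) has the widest error.

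Ratios between neighbouring HOXB genes within a library need no scaling between libraries, and were added after the data had been seen. HOXB4 had 17.1, 12.0 and 13.7 counts for each HOXB5 count in DMSO and 37.7, 28.3 and 26.6 in FT671. HOXB5 against HOXB6 was 0.687, 0.871 and 1.0 in DMSO and 0.261, 0.385 and 0.429 in FT671. HOXB7 against HOXB8 was 3.25, 3.97 and 4.57 in DMSO and 6.0, 11.2 and 7.15 in FT671. In 6 of 7 neighbour ratios the groups did not overlap, which gave p = 0.1 each in a two-sided exact permutation test, the smallest that 3 against 3 libraries allow (0.117 after Benjamini-Hochberg adjustment over 7 ratios). Over 11091 pairs of neighbouring tested protein-coding genes in the genome, 59.4% of such ratios did not overlap, so a lack of overlap alone is common. The groups overlapped for HOXB6 against HOXB7, at 0.162 ± 0.0180 in DMSO and 0.163 ± 0.0301 in FT671 (SD, n = 3, exact permutation p = 1). Ratios that share a gene are not independent of each other. Each of the 6 ratios without overlap holds HOXB3, HOXB5 or HOXB8, and HOXB6 against HOXB7 holds none of them. These genes were called lower from the same counts, so the ratios are not separate evidence.

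**Figure D4:**
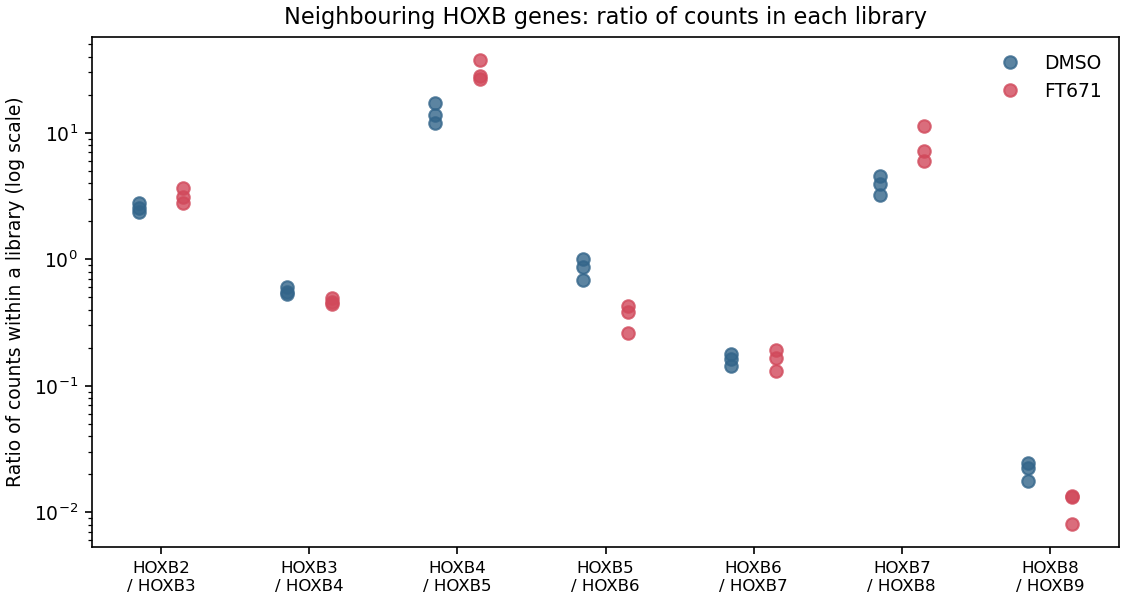
The log axis gives the ratio of counts of neighbouring HOXB genes in each library, blue for DMSO and red for FT671. The groups overlap for HOXB6 to HOXB7 and not for the other 6 ratios, beside 59.4% of neighbour ratios over all genes without overlap.

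In the HOXC cluster no tested gene passed the threshold. HOXC9, a posterior gene, had 111, 78 and 40 counts in DMSO and 25, 37 and 79 in FT671, or 7.69, 7.14 and 7.39 against 5.55, 6.68 and 7.06 CPM. The FT671 levels were all lower, the nearest by little, and the log2 fold change was -0.18 ± 0.171 (edgeR adjusted p = 0.411). HOXC6 had 52, 36 and 15 counts against 15, 10 and 27, with overlapping levels and a log2 fold change of -0.43 ± 0.267 (edgeR adjusted p = 0.200). HOXC4 had 10, 15 and 8 counts against 2, 13 and 17, which spread widely in FT671 (log2 fold change 0.46 ± 0.455, edgeR adjusted p = 0.425). Its log2 fold change was 0.11 without FT671 replicate 2 and 0.74 without FT671 replicate 1. HOXC8, which acts in patterning the trunk skeleton, had 16, 19 and 13 counts in DMSO and 1, 5 and 9 in FT671. Its groups did not overlap, but it was left out by the filter on low counts. Without the filter edgeR gave HOXC8 a log2 fold change of -1.22 ± 0.462 (adjusted p = 0.0372; 0.128 in DESeq2), in a fit where 12.8% of all genes fell and 9.74% rose.

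The question of reactivation concerned the 24 HOX genes silent in DMSO, and 0 of them became detected in FT671. Of 7183 protein-coding genes silent in DMSO, 0.849% became detected, a share that 24 genes are too few to tell from 0. Together the 24 genes had 11, 5 and 5 counts in the DMSO libraries and 5, 1 and 8 in the FT671 libraries, so no gain was seen. Of the 24, 6 had any count in FT671, beside 24.5% of the 7183 genes. HOXC10 was the nearest to one, with 3, 2 and 2 counts in DMSO and 4, 0 and 2 in FT671. It was over 3 counts only in FT671 replicate 1, and counts as detected if FT671 replicate 2 or 3 is left out and 1 of the 2 libraries left is enough. HOXB13, a prostate and hindgut factor, had 0, 0 and 0 counts in DMSO and 0, 1 and 1 in FT671. Of 16 HOX genes at 0 in all DMSO libraries, 2 had any count in FT671 (HOXB13 and HOXD3), and of 18 at 0 in all FT671 libraries, 4 had any in DMSO (HOXA2, HOXC11, HOXD4 and HOXD12).

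HOXA9, HOXA10 and HOXA7, which MLL fusions are known to activate, had no count in any library. Pooled over a treatment's 3 libraries, a count of 0 allows up to 0.0982 CPM in DMSO and 0.139 CPM in FT671, so a level below this was not detectable at this depth. The 23 genes silent in both groups summed to 14 counts in DMSO, or 0.458 CPM (95% exact Poisson interval 0.251 to 0.769), and to 8 in FT671, or 0.370 CPM (0.160 to 0.730). The intervals, which cover counting error only, overlapped over most of their length. Of these 23 genes, 9 share no exon sequence with another gene, whereas in HOXA7, HOXC5 and HOXD1 under 50% of the exon sequence is their own, and how reads over the shared part were counted is not known.

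Loss of detection was seen in 1 of the 13 genes detected in DMSO, against 1.79% of the 12097 protein-coding genes detected there, and it lay near the limit. HOXC13, which is needed for hair, had 7, 10 and 3 counts in DMSO and 1, 1 and 1 in FT671. The FT671 libraries together were the shallower. With all counts scaled to the smallest library total 0 genes were lost. That scaling also lowers DMSO counts that are already near the limit, so it cannot tell whether depth made the loss. In CPM, which allow for depth, HOXC13 was at 0.485, 0.916 and 0.555 in DMSO and 0.222, 0.180 and 0.0894 in FT671. Without the filter on low counts HOXC13 had a log2 fold change of -2.12 and an edgeR adjusted p of 0.0544. HOXC12 had 7, 3 and 2 counts in DMSO and 0, 0 and 4 in FT671, over 3 counts in 1 library of each group.

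**Figure D5:**
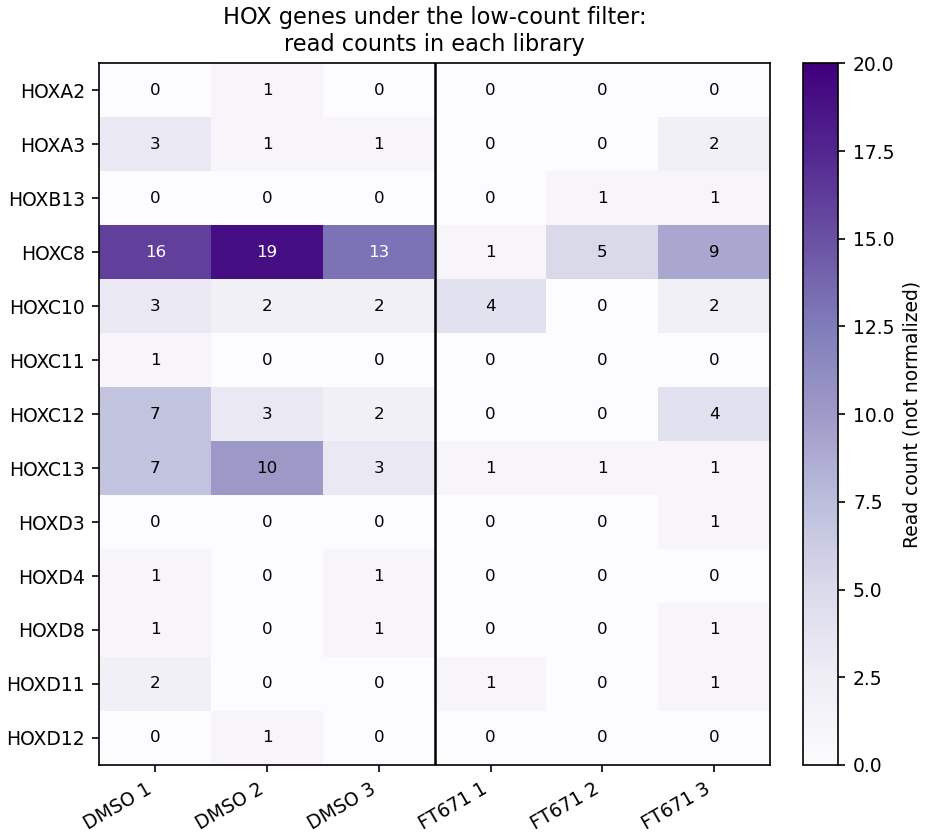
Numbers and colour are read counts per library, without normalization, for the HOX genes left out by the low-count filter that had any count; the line separates DMSO from FT671. HOXC8 has 13 to 19 counts in DMSO and 1 to 9 in FT671, and the silent genes stay at 4 counts or fewer in every library.

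Genes inside and beside the clusters were taken from the same fit. Of 57 non-coding genes within the cluster spans, 39 had no count in any library, 6 were tested and 0 were called by edgeR, with 1 lower and 0 higher at an unadjusted p under 0.05, and 0 were called by DESeq2. HOXB-AS1, transcribed opposite HOXB2 and HOXB3, had 192, 115 and 59 counts in DMSO and 40, 56 and 93 in FT671 (log2 fold change -0.38 ± 0.160, edgeR adjusted p = 0.0600). HOXB-AS3, opposite HOXB5 and HOXB6, had 43, 47 and 15 counts against 10, 10 and 33 (log2 fold change -0.47 ± 0.282, edgeR adjusted p = 0.180), and ranged from -0.77 without FT671 replicate 3 to -0.24 without DMSO replicate 2. The microRNA genes of the clusters (MIR10A, MIR10B, MIR196A1, MIR196A2, MIR196B, MIR615, MIR3185 and MIR7704) had no counts; the counts are of genes in RNA-seq libraries and not of small RNA. Of the 5 nearest other protein-coding genes on each side of each cluster, 30 of 40 were tested, 6 fell and 11 rose, with a median log2 fold change of 0.07, where 26.5% of all genes tested fell and 23.6% rose. CBX5, 174912 bases from HOXC, had the lowest (-0.82 ± 0.0931) and HNRNPA3, 1021787 bases from HOXD, the highest (0.97 ± 0.139). The 40 genes lay between 8759 and 1358091 bases from their cluster, so many are not close neighbours.

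HOX proteins bind DNA with TALE homeodomain partners of the PBX, MEIS and PKNOX families. Of 5 tested members of that list 3 rose and 1 fell, where 23.6% of all genes tested rose and 26.5% fell. PBX2 and MEIS2 rose, with log2 fold changes of 0.51 ± 0.0769 and 0.40 ± 0.0970 (SE), and PKNOX1 fell (-1.61 ± 0.154). PBX4 also rose, from 2.12 ± 0.503 CPM in DMSO to 4.54 ± 0.765 CPM in FT671 (SD, n = 3, edgeR adjusted p = 0.00318). MEIS1, the partner of HOXA9 in leukemia, was at 7.35 ± 0.494 CPM in DMSO and 7.33 ± 1.17 CPM in FT671 (SD, n = 3) and was not called (log2 fold change 0.04). The CDX factors, which activate HOX genes in the embryo and in some leukemias, had no count in any library.

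The regulators of HOX genes are given by list, beside 26.5% of all genes tested that fell and 23.6% that rose. Of 15 genes in a list of MLL genes, DOT1L and other activators 9 fell and 2 rose, with a median log2 fold change of -0.33. The list also holds SETD1A, SETD1B, KDM6A and KDM6B, which are all among those that fell. DOT1L, the H3K79 methyltransferase, fell by 1.30 and DPY30 rose by 0.46. Of 12 PRC2 genes 3 fell and 2 rose (median -0.10), with EZH1 at -1.09 and RBBP7 at 0.51. Of 13 canonical PRC1 genes 7 fell and 1 rose (median -0.29), with CBX6 at -1.78 and RNF2 at 0.39. RING1 and RNF2, which encode RING1A and RING1B, were counted in this list alone, although the paper places both in PRC1.1 too. RNF2 was not called without DMSO replicate 1, DMSO replicate 2 or FT671 replicate 3 (adjusted p = 0.0791, 0.0514 and 0.0783). Of 9 PRC1.1 genes 4 fell and 2 rose (median -0.10), with USP7, the target of FT671, at 119 ± 12.3 CPM in DMSO and 33.1 ± 3.38 CPM in FT671 (SD, n = 3, log2 fold change -1.82 ± 0.104, edgeR adjusted p = 2.7e-08) and SKP1 at 0.65. Of 10 tested genes of the retinoic acid pathway, a known inducer of anterior HOX genes, 4 fell and 2 rose (median -0.30), with DHRS3 at -1.07 and RARG at 1.29. Whether these changes bear on the HOX genes was not tested.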

How the data were processed

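Total RNA of K562 cells was depleted of ribosomal RNA (RiboErase) before library preparation with KAPA RNA HyperPrep. The authors aligned reads to hg38 with STAR and deposited 1 count per gene and library, without normalization; the STAR version, annotation release and strand setting are not given in the sources used here. Of 60609 identifiers, 60295 were matched to GENCODE 44; the other 314 held 0.0609% of counts. CPM were computed from library totals scaled by TMM, and log2 fold changes with edgeR 4.0.16 (filterByExpr, glmQLFit and glmQLFTest, all 6 libraries, no covariate); the SE is the log2 fold change divided by the root of its F. DESeq2 1.42.0, other scalings and filters, exon length and GC corrections, a replicate block and leaving out each library were alternatives. The fits were tested on simulated data, with changes placed only in genes of higher mean counts than HOXB5 and HOXB8. That test does not cover changes at the depth of these 2 genes. The HOX genes and the gene lists were chosen with earlier results of these data known. All HOX genes, tested genes in or beside the clusters, all TALE partners, USP7, and the largest rise and fall of each list could be named. Other list members are named to say what a list holds. Pairs of replicates differed by more than counting noise (chi-square per degree of freedom at least 2.07), so none was merged. Histone ChIP-seq samples were not analysed here, and 1 HOX gene and 1 marker gene are not reported here.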

Additional observations from a re-analysis of the deposited data

How the results depend on the processing

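HOXB3, HOXB5 and HOXB8 fell in every fit that tested them. HOXB5 was untested when at least 10 counts were asked of every library, and no fit called a HOX gene higher. The drop of HOXB3 was smaller with GC correction (-0.38) and exon length correction (-0.32, edgeR adjusted p = 0.0219). It was smallest, at -0.30, with exon length correction and replicate block (edgeR adjusted p = 0.0329). HOXB5 ranged from -1.43 to -1.04 and HOXB8 from -1.21 to -0.78 over the alternatives. Library totals alone and the exon length correction added HOXB4 (4 lower), no filter on low counts added HOXC8, and exon length correction with replicate block gave 5 lower, with HOXB4 and HOXB9. Replicate numbers are shared between the groups, but same-numbered libraries did not all deviate together (r = 0.115, -0.0605 and 0.140 across genes, which are not independent replicates), so the numbers were not used as pairs; the replicate block gave 3 HOX genes lower and 0 higher and changed no other call on a HOX gene. Leaving out 1 library at a time left the same 3 HOX genes lower, while non-coding genes lower ranged from 0 to 1 (HOXB-AS1 without DMSO replicate 3, HOXC-AS1 without FT671 replicate 1) and flanking genes higher from 7 to 14, lowest without FT671 replicate 3. Non-coding genes lower were also 1 with library totals alone and with exon length correction. Silent HOX genes gaining detection were 1 at a limit of at least 1 count (HOXB13), and 0 to 1 when a library was left out (HOXC10, without FT671 replicate 2 or 3). Genes detected in DMSO and silent in FT671 were 1 with more than 3 counts (HOXC13), 1 at a limit of at least 1 count (HOXD4), 1 at 10 counts (HOXC8), 0 with counts scaled to the smallest total and 0 when detection was asked of all 3 libraries. Values near 0 changed sign. HOXB6 was 0.062 with GC correction and 0.087 with GC correction and replicate block, and -0.15 to 0.054 when a library was left out. HOXB7 was -0.034 with library totals alone, -0.00062 in DESeq2, -0.037 with no filter, -0.0014 with 10 counts in every library, -0.023 with the replicate block, -0.070 with exon length correction and -0.11 with that and the block, and -0.11 to 0.063 when a library was left out. MEIS1 was -0.0069 with the replicate block and -0.070 to 0.14 when a library was left out. The cause was not tested. When a library was left out, HOXB2 ranged from -0.22 to -0.077, HOXB9 from -0.16 to -0.078, HOXC6 from -0.59 to -0.28 and HOXC9 from -0.27 to -0.10, none called. Depth limits the silent genes, where a level of 3 counts or fewer was not called.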
